A study of Mus musculus with 9 samples.

Results

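The livers of rats given fructose together with a plant extract (the HME group) were compared with those of rats given water (the control group), gene by gene across the genome. The genes compared are those with at least 10 counts in 3 or more of the 6 libraries, which were 12648 of the 19686 genes in the count table. The series holds liver RNA from 9 male Wistar rats, with 3 rats in each of 3 groups, and RNA was sequenced after 8 weeks of treatment. It asks what an extract of Danggui-Shaoyao-San (DSS), a formula of several herbs, does to the liver of fructose-fed rats.

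Control rats drank purified water and were given saline by gavage. HME rats drank water with 15% fructose and were gavaged with HME, an extract of DSS made in a methanol and water mixture, at 1.8 g/kg. The other group, called model, drank the same fructose and was given saline, and its levels are used only as a description. The sample labels call the HME rats DSS, while the methods state that HME was the extract taken to sequencing, so the names stand for the same rats. The organism is labelled as the mouse and the strain as the Wistar rat, and the gene identifiers belong to the rat. All rats were fasted before they were killed under chloral hydrate. Neither their age nor the time of day of killing is given in the sources used here. Since HME rats differ from control rats in both the drink and the extract, the part of each cannot be told apart in this comparison. The labels do not say whether rats with the same replicate number share anything.

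The libraries of control rats 1, 2 and 3 held 21978523, 16359924 and 14345819 counts on genes, and those of HME rats 1, 2 and 3 held 18600234, 18331311 and 21180914. Levels are given in CPM, the reads of a gene divided by the size of its library and brought to the same standard total for every library, with sizes adjusted by TMM scaling, which evens out differences in RNA composition between libraries. Reads were counted without regard to strand, so reads of genes that overlap may be left out or not told apart. Reads of near-identical gene copies may also be left out or not told apart, which was not tested. The labelled tissue was checked by markers. All 8 hepatocyte markers in the table passed the count filter, and their summed level was 145000, 186000 and 171000 CPM in the control rats and 185000, 181000 and 228000 CPM in the HME rats. Alb, which encodes serum albumin, was the most abundant of them, at 88500 to 143000 CPM. Both skeletal muscle markers in the table stayed under the filter, with a summed level of at most 0.367 CPM in any of the 6 rats. Macrophage, endothelial, stellate cell and blood cell markers were present at low levels, which are given with the cell types below.

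The liver takes up sugar after a meal, breaks it down by glycolysis and builds surplus carbon into fatty acids, which are joined to glycerol and exported as lipoproteins. Fructose enters this route below the main control point of glycolysis, and the transcription factors SREBP1c and ChREBP raise the genes of fat synthesis when insulin and sugar are plentiful. In the fasted liver these genes are low, fatty acids are oxidized to ketone bodies, and a circadian clock sets when in the day many of these genes are made.

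HME rats had far lower RNA levels than control rats of Scd, Fasn, Acly and Acaca, enzymes that make fatty acids, of Pklr and Tkfc, enzymes of sugar and fructose breakdown, and of the clock repressors Per2 and Cry1. Single genes were higher in other routes, among them Gk for the use of glycerol, Cpt1a for fatty acid import into mitochondria, Cyp8b1 for bile acid synthesis, Hsd17b2 for steroid inactivation and Mt1 for metal binding. A gene was called different when its fitted log2 fold change, HME minus control, was at least 0.5 in size and its false discovery rate (FDR, a p-value adjusted by Benjamini-Hochberg over all 12648 genes) was at most 0.01 in edgeR's two-sided quasi-likelihood test. By this rule 187 genes were called, 1.48% of those tested, with 84 higher in HME rats (0.664%) and 103 lower (0.814%). Every called gene had all 3 HME rats on one side of all 3 control rats, as did 3802 of all tested genes (30.1%). Of all tested genes, HME rats lay above in 1861 (14.7%) and below in 1941 (15.3%). The called genes were a median of 2.41-fold higher or 2.34-fold lower, and 13 of the higher and 26 of the lower genes differed at least 4-fold, against a median log2 fold change of -0.0081 over all tested genes. The smallest change called was 0.59 on the log2 scale. Levels varied between rats of the same group by 17.5% among control rats and 18.8% among HME rats (biological coefficient of variation).

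These counts depended on single rats and on scaling. Without control 1, 2 or 3, edgeR called 18, 33 and 41 genes higher and 59, 49 and 63 lower, and without HME 1, 2 or 3 it called 34, 70 and 40 higher and 55, 62 and 52 lower. Of the 187 genes, 47 were called in all 6 of these fits, 41 in none of them, and none changed sign, while some genes with few counts fell under the count filter there. When libraries were scaled by their totals alone the median of all genes moved to -0.143 and the split became 57 higher and 179 lower, with 52 and 102 of the original calls among them. For single genes, the settings that ended a call are named with their adjusted p, among them a fit to all 9 libraries and a fit with the replicate number as a block (the replicate block). All changes below are on the TMM scale, and a list of genes is given a direction only where its median kept its sign under each scaling. The first principal component, 44.9% of the variance, separated all control rats from all HME rats, while control 2 and HME 3 stood apart from the other rats on the second, at -20 and -29.3. An exact permutation test of a single value in 3 against 3 rats cannot fall below p = 0.1, so the tests given are those of the fit across all genes. In bulk tissue, fewer cells of a type and less RNA per cell cannot be told apart.

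**Figure D1:**
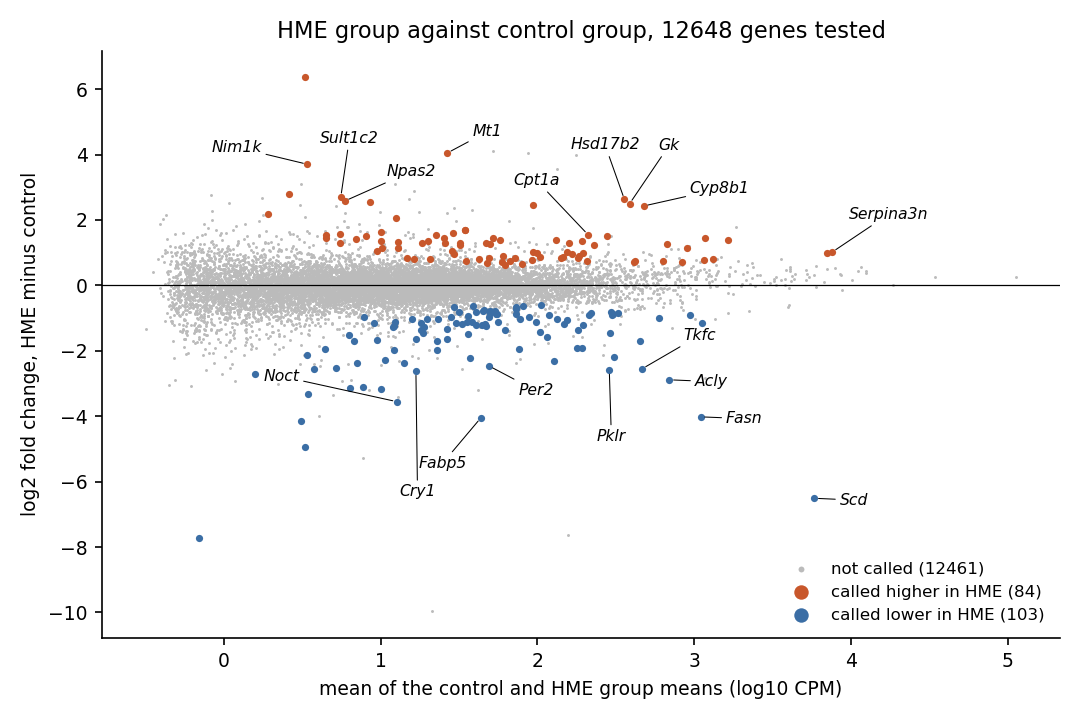
Each point is one of 12648 genes, placed by the mean of the control and HME group means (log10 CPM) and by the fitted log2 fold change, HME minus control. The 84 genes called higher are red, the 103 called lower are blue and the rest are grey, and the fat synthesis genes Scd, Fasn and Acly are the blue points at the lower right.

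The plot of all genes shows Scd apart from the other called genes. By function, 42 lists of genes were examined, and the plot of the lists ranks them by their median. Fatty acid synthesis had the lowest median, -1.25, followed by clock output genes at -1.07 and heat shock chaperones at -0.63. At the other end stood glucocorticoid targets at 0.47, bile acid synthesis at 0.46 and ATF4 targets at 0.44. Of the 187 called genes 81 (43.3%) belonged to a list or gene family examined, as did 1841 of the 12648 tested genes (14.6%), and 106 to none. The lists and their members were chosen with earlier results of these data known. The larger share among called genes and the ranking of lists are therefore descriptions and no test of function. Rises, falls and calls are those of edgeR unless DESeq2 is named. DESeq2 called 388 of the 12648 tested genes higher and 379 lower by the same thresholds. In edgeR 3063 of all tested genes (24.2%) had an unadjusted p below 0.05. Genes named below outside the rule for named genes were chosen after their values were seen.

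**Figure D2:**
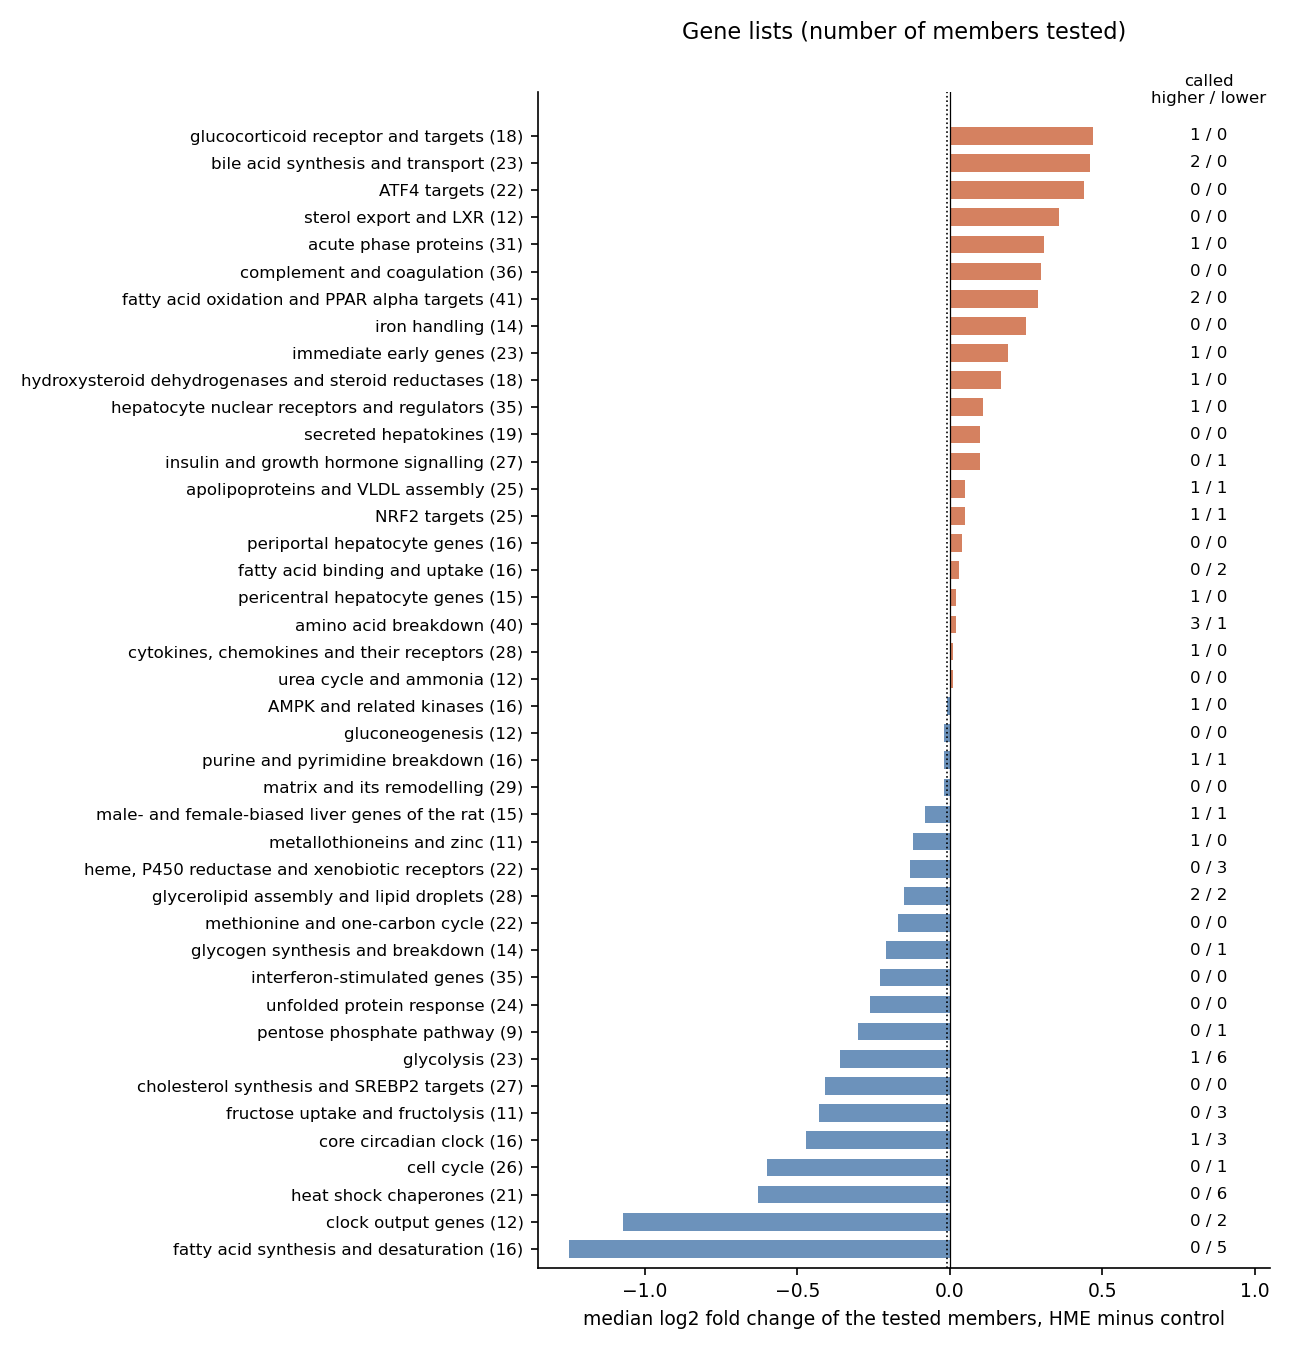
Bars give the median log2 fold change, HME minus control, of the tested members of each list (number in brackets), the dotted line marks the median of all genes, and the figures at the right count members called higher and lower. The lists on apolipoproteins, NRF2 targets, fatty acid binding, amino acid breakdown, urea cycle, insulin, nuclear receptors, hepatokines, cytokines, and pericentral and periportal genes have medians near 0 that change sign with scaling by library size alone, and AMPK kinases have a median of -0.01, which is -0.15 with library size alone and at 0 with DESeq2's size factors.

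Of 16 tested genes of fatty acid synthesis and desaturation, 5 fell and none rose, and DESeq2 called 10 lower. In 11 every HME rat was below every control rat, as in 15.3% of all genes. Scd (stearoyl-CoA desaturase, ENSRNOG00000013552), which puts the first double bond into newly made fatty acids, stood at 8858, 14250 and 11540 CPM in the control rats and 106, 216 and 58.4 CPM in the HME rats. The highest HME rat held a small fraction of the lowest control rat, and edgeR put the fall at 91.1-fold (log2 fold change -6.51, SE 0.61, adjusted p = 0.00541). Fasn (fatty acid synthase, ENSRNOG00000045636), which builds palmitate, was at 1584, 2846 and 1780 CPM in the control rats and 80.5, 148 and 154 CPM in the HME rats. The groups did not overlap, with control 2 the highest rat, and Fasn fell 16.2-fold (log2 fold change -4.02, SE 0.35, adjusted p = 0.00184). Acly, which splits citrate to give cytosolic acetyl-CoA, measured 1202, 1534 and 938 CPM in the control rats and 105, 143 and 248 CPM in the HME rats. Its groups were also apart, with HME 3 the highest of the HME rats (log2 fold change -2.89, SE 0.36, adjusted p = 0.00815). Scd lost its call without control 1, 2 or 3 or HME 1, with adjusted p 0.0217, 0.0212, 0.0189 and 0.0349. With 1 rat left out, its log2 fold change ranged from -7.13 without HME 2 to -6.15 without HME 3. Fasn lost its call without HME 2, with adjusted p 0.0101. Acly lost its call without control 1, 2 or 3 or HME 2, with adjusted p 0.0397, 0.0251, 0.0149 and 0.0358. Scd and Acly lost their calls with no count filter, with adjusted p 0.0169 and 0.0303. Acly lost its call with the replicate block, with adjusted p 0.0348.

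Acaca, the carboxylase that commits acetyl-CoA to fatty acids, was at 215, 230 and 189 CPM in the control rats and 41, 38.5 and 47 CPM in the HME rats. Rats of either group lay close together and the groups far apart (log2 fold change -2.33, SE 0.13, adjusted p = 3.81e-05). The gene for their common activator, Srebf1, was at 577, 878 and 618 CPM in the control rats and 172, 222 and 247 CPM in the HME rats. No HME rat reached the lowest control rat (log2 fold change -1.69, SE 0.20, adjusted p = 0.00241). Acaca kept its call with each of the 6 rats left out. Srebf1 lost its call without HME 2, with adjusted p 0.0103. Srebf1 lost its call with all 9 libraries in one fit, with adjusted p 0.0279. Further members lay lower in every HME rat without passing the test. Thrsp, a regulator of lipogenesis, had 1807, 2271 and 2057 CPM in the control rats and 131, 276 and 459 CPM in the HME rats (adjusted p = 0.0248), and it was called without HME 1 or HME 3 (adjusted p = 0.00318 and 0.00705). Me1, which makes NADPH for the route, had 126, 192 and 64.4 CPM in the control rats and 26.7, 29 and 25.3 CPM in the HME rats (adjusted p = 0.0326), and it was called without control 3 (adjusted p = 0.00048). Elovl2 and Elovl5, which lengthen polyunsaturated chains, had fitted log2 fold changes of 0.13 and 0.32 and were not called.

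Fructose itself is taken up and split by a short route, and 3 of its 11 tested genes fell and none rose (median -0.43, 5 lower by DESeq2). In 7 of its genes every HME rat was lower, as in 15.3% of all genes. Tkfc (triokinase, ENSRNOG00000020704) phosphorylates the glyceraldehyde released from fructose and was at 711, 816 and 858 CPM in the control rats and 134, 138 and 136 CPM in the HME rats. The 3 HME rats were almost alike and far below every control rat, a 5.86-fold fall (log2 fold change -2.55, SE 0.12, adjusted p = 2.63e-05). Slc2a5, the fructose transporter GLUT5, had 15.3, 22 and 21.2 CPM in the control rats and 6.07, 4.97 and 3.75 CPM in the HME rats. Each HME rat lay well below each control rat (log2 fold change -1.98, SE 0.21, adjusted p = 0.00153). Khk, the kinase that starts fructose breakdown, was not called, at 350, 474 and 529 CPM in the control rats and 277, 242 and 286 CPM in the HME rats. Its groups did not overlap, although HME 3 and control 1 were close (log2 fold change -0.75, SE 0.16, adjusted p = 0.0279). The last gene called in the route, Gpd1, reduces dihydroxyacetone phosphate to glycerol 3-phosphate, and it stood at 1204, 1285 and 1156 CPM in the control rats and 652, 656 and 644 CPM in the HME rats. All HME rats lay below all control rats (log2 fold change -0.90, SE 0.11, adjusted p = 0.00291). Tkfc and Slc2a5 kept their calls with each of the 6 rats left out. Gpd1 lost its call whichever rat was left out, with adjusted p from 0.0101 to 0.0168. Gpd1 lost its call with all 9 libraries in one fit, with adjusted p 0.0363. Gpd1 lost its call with the replicate block, with adjusted p 0.0152.

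Glycolysis had 6 genes that fell and 1 that rose among 23 tested (median -0.36, DESeq2 2 higher and 7 lower). Pklr, the liver pyruvate kinase, was at 530, 447 and 501 CPM in the control rats and 62.9, 99.9 and 82.8 CPM in the HME rats. The groups were far apart (log2 fold change -2.59, SE 0.18, adjusted p = 0.000169). Pfkfb1, whose enzyme sets fructose 2,6-bisphosphate and with it the pace of glycolysis, was at 100, 129 and 133 CPM in the control rats and 23.3, 29.5 and 42.2 CPM in the HME rats. The highest HME rat, HME 3, remained below the lowest control rat, control 1 (log2 fold change -1.93, SE 0.22, adjusted p = 0.00367). Enzymes of the middle of the pathway fell by less, Gpi by 2.26-fold, Eno1 by 1.89-fold and Pgk1 by 1.8-fold. Pklr kept its call with each of the 6 rats left out. Pfkfb1 lost its call without control 2 or 3 or HME 2, with adjusted p 0.0199, 0.015 and 0.0176. Gpi kept its call only without control 1, with adjusted p 0.011 to 0.018 without each other rat. Eno1 kept its call only without control 1, with adjusted p 0.016 to 0.0253 without each other rat. Pgk1 kept its call only without control 1, with adjusted p 0.0143 to 0.0238 without each other rat. Pgk1 lost its call with all 9 libraries in one fit, with adjusted p 0.0147. Eno1 and Pgk1 lost their calls with the replicate block, with adjusted p 0.0135 and 0.0159.

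The pyruvate dehydrogenase complex turns pyruvate into acetyl-CoA inside mitochondria. Its genes were not examined as a list of their own, and Pdk1, Dlat and Pdhb are given as single genes. Pdk1, a kinase that switches the complex off, had 72.9, 80.7 and 75.4 CPM in the control rats and 35.6, 34.4 and 35.6 CPM in the HME rats. Every HME rat was near the same level, below each control rat (log2 fold change -1.12, SE 0.09, adjusted p = 0.000457). Dlat and Pdhb, core subunits of the complex, are on no list and were chosen after their values were seen. Dlat was at 51, 64.3 and 43.6 CPM in the control rats and 17.4, 19.7 and 19.5 CPM in the HME rats. Pdhb was at 167, 178 and 194 CPM in the control rats and 77, 94.2 and 90.6 CPM in the HME rats. Neither gene overlapped between groups (log2 fold changes -1.49 and -1.04, adjusted p = 0.00106 and 0.00195). Among 9 pentose phosphate genes (median -0.30, 2 lower by DESeq2), 1 fell and none rose. That was Tkt, the transketolase, with 349, 494 and 437 CPM in the control rats and 140, 145 and 181 CPM in the HME rats. HME rats lay below every control rat (log2 fold change -1.46, SE 0.16, adjusted p = 0.0018). Pdk1, Dlat, Pdhb and Tkt kept their calls with each of the 6 rats left out.

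**Figure D3:**
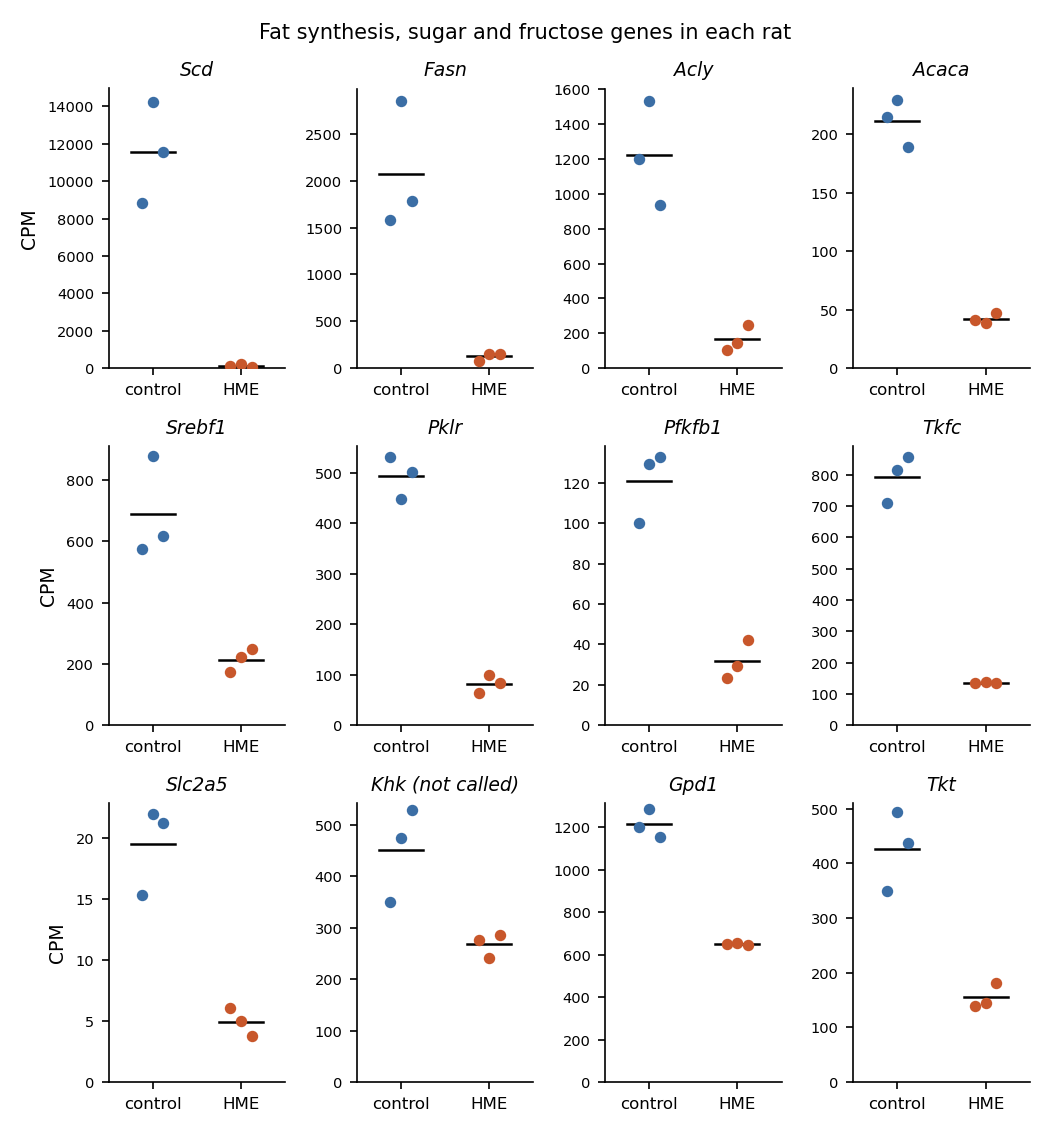
CPM of 12 genes of fat synthesis, glycolysis, fructose use and the pentose phosphate pathway in each of the 3 control and 3 HME rats, with a bar at each group mean and all axes from 0. No HME rat reaches a control rat in any panel, and Khk is marked as not called.

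The panels of sugar and fat genes show that HME rats sat close to each other in Tkfc, Acaca and Gpd1. Glycogen genes had 1 fall among 14 tested (median -0.21, 2 lower by DESeq2), the branching enzyme Gbe1. It stood at 399, 435 and 421 CPM in the control rats and 206, 266 and 229 CPM in the HME rats, with no overlap (log2 fold change -0.84, SE 0.13, adjusted p = 0.00706). New glucose synthesis had none of 12 genes called by edgeR, with 5 at unadjusted p below 0.05 (24.2% of all genes were) and DESeq2 calling 1 higher and 1 lower. Pck1, which makes phosphoenolpyruvate for it, ranged over 741, 720 and 1023 CPM in the control rats and 3473, 1285 and 3763 CPM in the HME rats. Each HME rat was above each control rat, HME 2 least so, and the gene was called only when HME 2 was left out (adjusted p = 0.00121, against 0.0616 with all rats). G6pc, which frees glucose from its phosphate, overlapped between groups, at 239, 483 and 939 CPM in the control rats and 203, 244 and 598 CPM in the HME rats (log2 fold change -0.67, SE 0.67, adjusted p = 0.608). Gbe1 kept its call only without HME 2, with adjusted p 0.0213 to 0.03 without each other rat. Gbe1 lost its call with all 9 libraries in one fit, with adjusted p 0.0127. Gbe1 lost its call with the replicate block, with adjusted p 0.0176.

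Genes of glycerol and lipid droplets were called in both directions. Gk (glycerol kinase, ENSRNOG00000034116), through which the liver uses glycerol from fat tissue, was at 106, 136 and 107 CPM in the control rats and 658, 645 and 670 CPM in the HME rats. HME rats were within a narrow band 5.65-fold above the control rats (log2 fold change 2.50, SE 0.14, adjusted p = 3.81e-05). Agpat3, which adds a further fatty acid to lysophosphatidic acid, rose as well, from 25.8, 30.4 and 24.9 CPM to 60.1, 73.6 and 65.8 CPM. Its groups did not overlap (log2 fold change 1.30, SE 0.12, adjusted p = 0.00071). Of the other members of the glycerolipid and lipid droplet list (28 tested, 2 higher and 2 lower, DESeq2 2 and 6, median -0.15), Mgll, which releases the last fatty acid of a glyceride, fell from 53.4, 71.2 and 66.5 CPM to 37.5, 36.2 and 32.9 CPM. HME rats lay below all control rats (log2 fold change -0.84, SE 0.13, adjusted p = 0.00673). Pnpla3, a lipase and acyltransferase of lipid droplets, was not called although it stood at 450, 451 and 34.8 CPM in the control rats and 1.21, 0.383 and 3.07 CPM in the HME rats. No HME rat came near the control rats, which differed among themselves (log2 fold change -7.63, SE 1.46, adjusted p = 0.0531). Its relative Pnpla5 had 2461 counts over the control rats and 2 over the HME rats, a ratio of 1230 (95% counting interval 339 to 10100), and was not called either (adjusted p = 0.0107). Such intervals cover counting error only. Gk and Agpat3 kept their calls with each of the 6 rats left out. Mgll kept its call only without control 1, with adjusted p 0.0177 to 0.0279 without each other rat. Mgll lost its call with all 9 libraries in one fit, with adjusted p 0.0265. Mgll lost its call with the replicate block, with adjusted p 0.0218.

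Fatty acids are carried and activated before use, and 2 genes of this step fell and none rose among 16 on fatty acid binding and uptake, a list whose median of 0.03 changed sign with library size alone and in which DESeq2 called 2 higher and 3 lower. Fabp5, a fatty acid carrier, stood at 92.1, 98 and 56.3 CPM in the control rats and 4.08, 5.74 and 5.02 CPM in the HME rats. HME rats were all far below the control rats (log2 fold change -4.05, SE 0.25, adjusted p = 0.000278). Acsl5, which links fatty acids to coenzyme A, was at 515, 669 and 336 CPM in the control rats and 92.8, 120 and 120 CPM in the HME rats. The groups were apart (log2 fold change -2.19, SE 0.25, adjusted p = 0.00335). Among genes that oxidize fatty acids or answer to PPAR alpha, 2 of 41 rose and none fell, DESeq2 called 11 higher, and the median was 0.29. Of these, 19 were above all control rats and 2 below, against 14.7% and 15.3% of all genes. Cpt1a (carnitine palmitoyltransferase, ENSRNOG00000014254), the gate for long fatty acids into mitochondria, was at 111, 101 and 111 CPM in the control rats and 331, 284 and 326 CPM in the HME rats. Every HME rat was well above every control rat, 2.92-fold on average (log2 fold change 1.55, SE 0.12, adjusted p = 0.000278). Bdh1, which makes the ketone body 3-hydroxybutyrate, had 313, 311 and 312 CPM in the control rats and 494, 551 and 496 CPM in the HME rats. HME rats were higher without overlap (log2 fold change 0.72, SE 0.11, adjusted p = 0.00755). Ppara, the receptor of this program, was higher in each HME rat but not called (log2 fold change 0.63, SE 0.20, adjusted p = 0.102). Pparg, the receptor better known from fat cells, rose from 2.2, 2.92 and 3.21 CPM to 8.61, 8.09 and 7.88 CPM (log2 fold change 1.57, SE 0.20, adjusted p = 0.00291), with no overlap. Fabp5 and Cpt1a kept their calls with each of the 6 rats left out. Bdh1 lost its call whichever rat was left out, with adjusted p from 0.0166 to 0.0345. Acsl5 lost its call without control 1 or HME 1, 2 or 3, with adjusted p 0.0214, 0.016, 0.0153 and 0.0152. Pparg lost its call without control 1 or 2 or HME 1 or 3, with adjusted p 0.0114, 0.0115, 0.0151 and 0.012. Bdh1 lost its call with library size alone, with adjusted p 0.0187. Bdh1 and Pparg lost their calls with the replicate block, with adjusted p 0.0308 and 0.0118.

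Lipoprotein genes gave 1 rise and 1 fall among 25 tested (DESeq2 4 and 1), with a median of 0.05 that changed sign with library size alone. Apoa5, which helps clear plasma triglyceride, was at 588, 549 and 540 CPM in the control rats and 1126, 1104 and 1456 CPM in the HME rats. HME rats lay above all control rats (log2 fold change 1.14, SE 0.14, adjusted p = 0.00281). Tm6sf2, which loads lipid onto very low density lipoprotein, was at 43, 53.4 and 50.2 CPM in the control rats and 22.4, 22.5 and 22.6 CPM in the HME rats. They lay below all control rats for this gene (log2 fold change -1.12, SE 0.11, adjusted p = 0.00106). Cholesterol synthesis and SREBP2 targets had a median of -0.41 over 27 genes, none called by edgeR, 9 at unadjusted p below 0.05 (24.2% of all genes were), and 1 higher and 2 lower by DESeq2. Tm6sf2 kept its call with each of the 6 rats left out. Apoa5 lost its call without control 1, 2 or 3, with adjusted p 0.0107, 0.0163 and 0.0154. Apoa5 lost its call with the replicate block, with adjusted p 0.0116.

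Bile acids are made from cholesterol, and 2 of 23 genes of their synthesis and transport rose and none fell (median 0.46, 6 higher by DESeq2). Cyp8b1 (sterol 12-alpha-hydroxylase, ENSRNOG00000019481), which sets how much cholic acid is made, was at 117, 197 and 135 CPM in the control rats and 800, 806 and 812 CPM in the HME rats. The 3 HME rats were nearly identical and 5.39-fold above control rats (log2 fold change 2.43, SE 0.19, adjusted p = 0.000367). Slco1b2, an uptake carrier for bile acids and drugs, was at 462, 399 and 318 CPM in the control rats and 1122, 775 and 950 CPM in the HME rats. It too had no overlap between groups (log2 fold change 1.27, SE 0.18, adjusted p = 0.00529). Cyp7a1, the first enzyme of the classical route, held 287, 498 and 466 CPM in the control rats and 43.8, 104 and 202 CPM in the HME rats and was not called. All HME rats were below all control rats but they differed among themselves (log2 fold change -1.84, SE 0.59, adjusted p = 0.142). Sterol export genes (12 tested, median 0.36) were not called by edgeR, with 6 at unadjusted p below 0.05 (24.2% of all genes were) and 4 higher by DESeq2. Abcg5 and Abcg8, which form the sterol pump into bile, were both measured. Abcg5 had 14.8, 5.67 and 8.12 CPM in the control rats and 76.2, 32 and 40.7 CPM in the HME rats. Abcg8 had 11.1, 3.11 and 3.89 CPM in the control rats and 41.4, 20.6 and 25.7 CPM in the HME rats. For both genes each HME rat was above each control rat, and neither was called (adjusted p = 0.0521 and 0.0802). Cyp8b1 kept its call with each of the 6 rats left out. Slco1b2 kept its call only without HME 2, with adjusted p 0.0117 to 0.0259 without each other rat. Slco1b2 lost its call with all 9 libraries in one fit, with adjusted p 0.0147. Slco1b2 lost its call with library size alone, with adjusted p 0.012.

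The circadian clock is a loop in which CLOCK or NPAS2 with BMAL1 (Arntl) switch on PER, CRY and REV-ERB repressors. In the core clock 3 of 16 genes fell and 1 rose (median -0.47, DESeq2 5 lower and 3 higher). Per2 (period 2, ENSRNOG00000020254) was at 81.5, 91.1 and 76.9 CPM in the control rats and 15.6, 15 and 14.7 CPM in the HME rats. HME rats were within less than 1 CPM of each other and 5.51-fold below control rats, the lowest adjusted p of all genes (log2 fold change -2.46, SE 0.11, adjusted p = 1.87e-05). Cry1 (cryptochrome 1) was at 25.1, 33.9 and 27.7 CPM in the control rats and 6.01, 4.32 and 3.7 CPM in the HME rats, again with no overlap (log2 fold change -2.63, SE 0.20, adjusted p = 0.000285). Npas2, a partner of BMAL1, moved the other way, at 1.22, 2.68 and 1.23 CPM in the control rats and 8.88, 13 and 8.67 CPM in the HME rats. Control rats were all low (log2 fold change 2.59, SE 0.33, adjusted p = 0.00367). Nr1d1, which encodes the repressor REV-ERB alpha, had 8.66, 2.07 and 5.8 CPM in the control rats and 107, 102 and 85.8 CPM in the HME rats. The HME rats were all far above the control rats, yet the gene missed the threshold (log2 fold change 4.12, SE 0.47, adjusted p = 0.0112) and passed it without control 2 (adjusted p = 0.00016). Arntl overlapped between groups, at 17.3, 23.5 and 16.6 CPM in the control rats and 11.7, 14.6 and 17.7 CPM in the HME rats. Per2 and Cry1 kept their calls with each of the 6 rats left out. Npas2 lost its call without control 1 or 3 or HME 1 or 3, with adjusted p 0.0196, 0.0156, 0.0115 and 0.012.

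**Figure D4:**
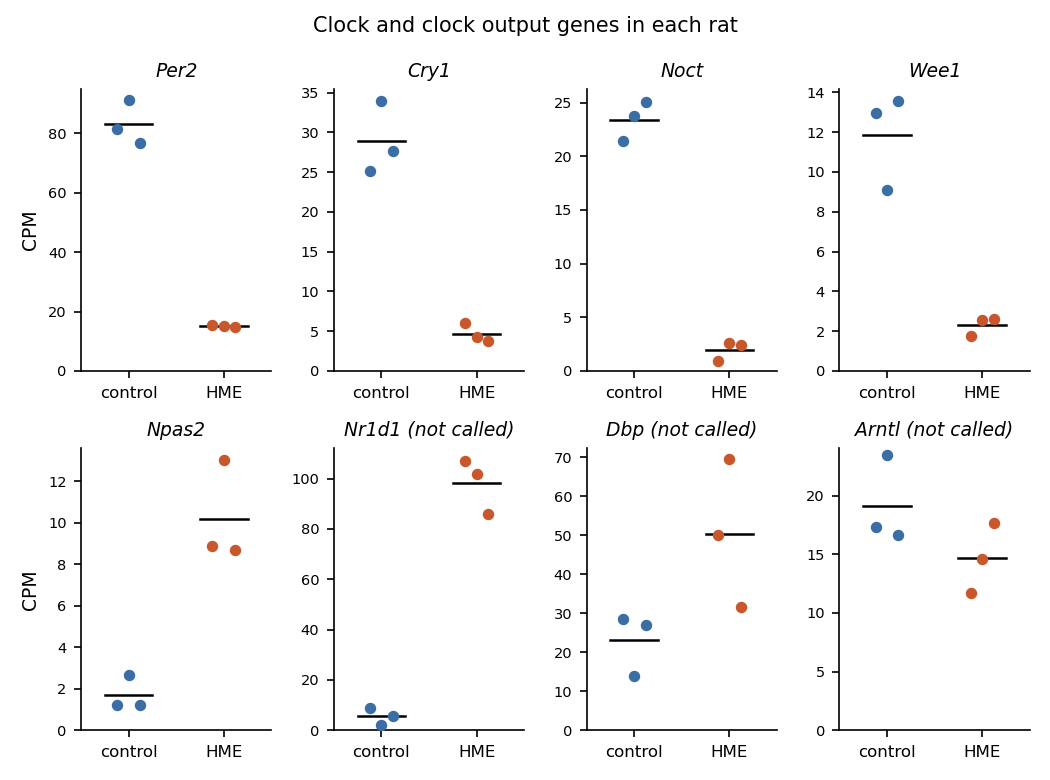
CPM of 8 clock and clock output genes in each of the 3 control and 3 HME rats, with bars at the group means and axes from 0. Per2, Cry1, Noct and Wee1 are lower and Npas2 higher in every HME rat, Nr1d1 and Dbp are higher in every HME rat but not called, and Arntl overlaps.

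The clock panels show groups far apart for Per2 and Nr1d1 and overlapping ranges for Arntl. Genes driven by the clock had 2 falls and no rise among 12 tested (median -1.07, DESeq2 7 lower and 1 higher). Of the 12, 8 were below all control rats (15.3% of all genes were). Noct, a phosphatase with a strong daily rhythm in liver, was at 21.4, 23.8 and 25.1 CPM in the control rats and 0.883, 2.62 and 2.43 CPM in the HME rats. No HME rat approached the control rats (log2 fold change -3.55, SE 0.31, adjusted p = 0.00106). Wee1, a kinase that holds back mitosis, had 13, 9.08 and 13.6 CPM in the control rats and 1.77, 2.57 and 2.59 CPM in the HME rats. It fell without overlap (log2 fold change -2.36, SE 0.23, adjusted p = 0.000969). Dbp, a transcription factor that follows the clock closely, was not called at 28.6, 14 and 26.9 CPM in the control rats and 50, 69.6 and 31.6 CPM in the HME rats. HME rats were higher, HME 3 only just (log2 fold change 1.12, SE 0.38, adjusted p = 0.147). Whether groups were killed at the same hour is not given in the sources, and its part in these differences was not tested. Noct and Wee1 kept their calls with each of the 6 rats left out.

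Drug and steroid metabolism rests on cytochrome P450 enzymes, which need heme and electrons. Alas1, the rate-limiting enzyme of heme synthesis, was at 223, 217 and 408 CPM in the control rats and 78.7, 81.4 and 66.7 CPM in the HME rats. Control 3 was the highest rat, and all HME rats were lower than all control rats (log2 fold change -1.90, SE 0.26, adjusted p = 0.00789). Por (P450 oxidoreductase, ENSRNOG00000001442), which passes electrons to microsomal P450 enzymes, was at 251, 266 and 265 CPM in the control rats and 95.7, 98.4 and 111 CPM in the HME rats. Each group was tight and the groups were well apart (log2 fold change -1.36, SE 0.11, adjusted p = 0.000377). Cyb5r3, which reduces cytochrome b5, fell as well, from 400, 354 and 370 CPM to 222, 203 and 208 CPM (log2 fold change -0.83, SE 0.11, adjusted p = 0.00419), with no overlap. These were the 3 genes called by edgeR among 22 of heme, reductases and drug receptors (median -0.13, DESeq2 1 higher and 4 lower). The P450 enzymes of families 1 to 4 had 1 rise and 1 fall among 41 tested (DESeq2 8 and 2), with a median of 0.31. Of the 41, 19 were above and 4 below all control rats, against 14.7% and 15.3% of all genes. Cyp3a23/3a1, a main drug and steroid hydroxylase, was at 611, 642 and 622 CPM in the control rats and 1763, 1691 and 1656 CPM in the HME rats. HME rats were all higher (log2 fold change 1.45, SE 0.11, adjusted p = 0.000323). Cyp2c22, on the list of sex-biased liver genes, was at 1150, 1852 and 1621 CPM in the control rats and 622, 798 and 654 CPM in the HME rats. HME rats were all lower (log2 fold change -1.16, SE 0.19, adjusted p = 0.00962). Por and Cyp3a23/3a1 kept their calls with each of the 6 rats left out. Cyb5r3 lost its call whichever rat was left out, with adjusted p from 0.0143 to 0.0175. Alas1 kept its call only without control 3, with adjusted p 0.0104 to 0.0378 without each other rat. Cyp2c22 kept its call only without control 1, with adjusted p 0.0143 to 0.0445 without each other rat. Cyp2c22 lost its call with DESeq2's size factors, with adjusted p 0.0101. Cyb5r3, Cyp3a23/3a1 and Cyp2c22 lost their calls with all 9 libraries in one fit, with adjusted p 0.0147, 0.01004 and 0.0322. Alas1 lost its call with no count filter, with adjusted p 0.0128. Alas1 and Cyb5r3 lost their calls with the replicate block, with adjusted p 0.0297 and 0.0163.

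Families of conjugating enzymes had medians above 0 and few calls by edgeR. Of 21 glutathione transferases (median 0.31, 2 higher by DESeq2), 2 rose and none fell, Gstm1 from 840, 825 and 869 CPM to 1455, 1632 and 1295 CPM and Gsta6 from 5.08, 5.67 and 6.21 CPM to 16.2, 16.7 and 10.2 CPM. Both were apart between groups (log2 fold changes 0.79 and 1.35, adjusted p = 0.00939 and 0.00789). Of 5 UDP-glucuronosyltransferases (median 0.60, 2 higher by DESeq2) 1 rose, Ugt2b35, and of 8 sulfotransferases (median 0.38, 3 higher by DESeq2) 1 rose, Sult1c2. Sult1c2 was at 1.87, 1.4 and 1.09 CPM in the control rats and 9.6, 8.69 and 10.8 CPM in the HME rats. HME rats were 6.5-fold higher (log2 fold change 2.70, SE 0.23, adjusted p = 0.000457), and the genes LOC100910526 and LOC100910057, listed as similar to it, rose with it (log2 fold changes 2.19 and 2.55). Reads of the 3 genes may not all be told apart. Hsd17b2 (17-beta-hydroxysteroid dehydrogenase, ENSRNOG00000013982), which inactivates estradiol and testosterone, was at 110, 92.2 and 96.9 CPM in the control rats and 769, 566 and 519 CPM in the HME rats. The HME rats were 6.18-fold above control rats without overlap (log2 fold change 2.63, SE 0.17, adjusted p = 0.000157), and it was the 1 gene called by edgeR among 18 steroid dehydrogenases and reductases (median 0.17, DESeq2 2 higher and 1 lower). Aldh1b1, a mitochondrial aldehyde dehydrogenase, fell from 24.2, 32 and 20.5 CPM to 7.34, 8.69 and 8.35 CPM (log2 fold change -1.65, SE 0.18, adjusted p = 0.00153), with no overlap. NRF2 targets, which include many of these enzymes, had a median of 0.05 over 25 genes that changed sign with library size alone, with Gstm1 called higher and Tkt lower by edgeR and 2 higher and 4 lower by DESeq2. Sult1c2, Hsd17b2 and Aldh1b1 kept their calls with each of the 6 rats left out. Gstm1, Ugt2b35 and LOC100910526 lost their calls whichever rat was left out, with adjusted p from 0.013 to 0.045. Gsta6 kept its call only without HME 3, with adjusted p 0.021 to 0.0397 without each other rat. LOC100910057 lost its call without control 1 or HME 1 or 3, with adjusted p 0.0214, 0.0119 and 0.013. Gstm1, Gsta6, Ugt2b35, Hsd17b2, Aldh1b1 and LOC100910526 lost their calls with all 9 libraries in one fit, with adjusted p 0.0303, 0.0204, 0.0141, 0.0112, 0.0317 and 0.0528. Gstm1, Gsta6, Ugt2b35 and LOC100910526 lost their calls with library size alone, with adjusted p 0.0219, 0.0172, 0.0163 and 0.0133. Gstm1, Gsta6, Ugt2b35, LOC100910526 and LOC100910057 lost their calls with the replicate block, with adjusted p 0.0341, 0.0252, 0.0349, 0.0256 and 0.0116. LOC100910526 was not tested under a filter of 10 counts in all 6 libraries.

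Breakdown of amino acids and nucleotides gave single strong genes and no common direction. In amino acid breakdown 3 of 40 genes rose and 1 fell (DESeq2 5 and 4), with a median of 0.02 that changed sign with library size alone. Amdhd1, which works in histidine breakdown, was at 25, 36.9 and 24.6 CPM in the control rats and 196, 137 and 145 CPM in the HME rats. HME rats were several-fold above all control rats (log2 fold change 2.47, SE 0.20, adjusted p = 0.00071). Kynu, a kynureninase of tryptophan breakdown, rose from 93.6, 105 and 78.1 CPM to 232, 220 and 228 CPM (log2 fold change 1.30, SE 0.13, adjusted p = 0.00106), and Agxt, which clears glyoxylate, rose from 49.7, 50.6 and 53.2 CPM to 95.5, 80.4 and 99.1 CPM (log2 fold change 0.84, SE 0.11, adjusted p = 0.0036). Aass, the first enzyme of lysine breakdown, fell from 284, 293 and 252 CPM to 176, 142 and 127 CPM (log2 fold change -0.90, SE 0.14, adjusted p = 0.00924). None of these genes overlapped between groups. Tymp, which splits thymidine, stood at 140, 168 and 126 CPM in the control rats and 405, 378 and 442 CPM in the HME rats. It rose 2.82-fold without overlap (log2 fold change 1.50, SE 0.14, adjusted p = 0.00071), while Gda, which removes guanine, fell from 60.4, 57.8 and 67.2 CPM to 24.8, 29.6 and 26.4 CPM (log2 fold change -1.20, SE 0.11, adjusted p = 0.00071), the 2 calls by edgeR among 16 genes of purine and pyrimidine breakdown (DESeq2 2 higher and 1 lower). Cps1, the entry enzyme of the urea cycle, overlapped between groups at 4518, 3860 and 4104 CPM in the control rats and 4502, 3213 and 4073 CPM in the HME rats (log2 fold change -0.08, SE 0.15, adjusted p = 0.788). None of 12 urea cycle genes was called by edgeR, with 4 at unadjusted p below 0.05 (24.2% of all genes were) and DESeq2 calling 0 higher and 1 lower. Amdhd1, Kynu, Tymp and Gda kept their calls with each of the 6 rats left out. Agxt kept its call only without HME 2, with adjusted p 0.013 to 0.0185 without each other rat. Aass kept its call only without HME 1, with adjusted p 0.019 to 0.0377 without each other rat. Aass lost its call with DESeq2's size factors, with adjusted p 0.01001. Agxt, Aass and Gda lost their calls with all 9 libraries in one fit, with adjusted p 0.0212, 0.0449 and 0.0687. Agxt and Aass lost their calls with the replicate block, with adjusted p 0.0116 and 0.0159.

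**Figure D5:**
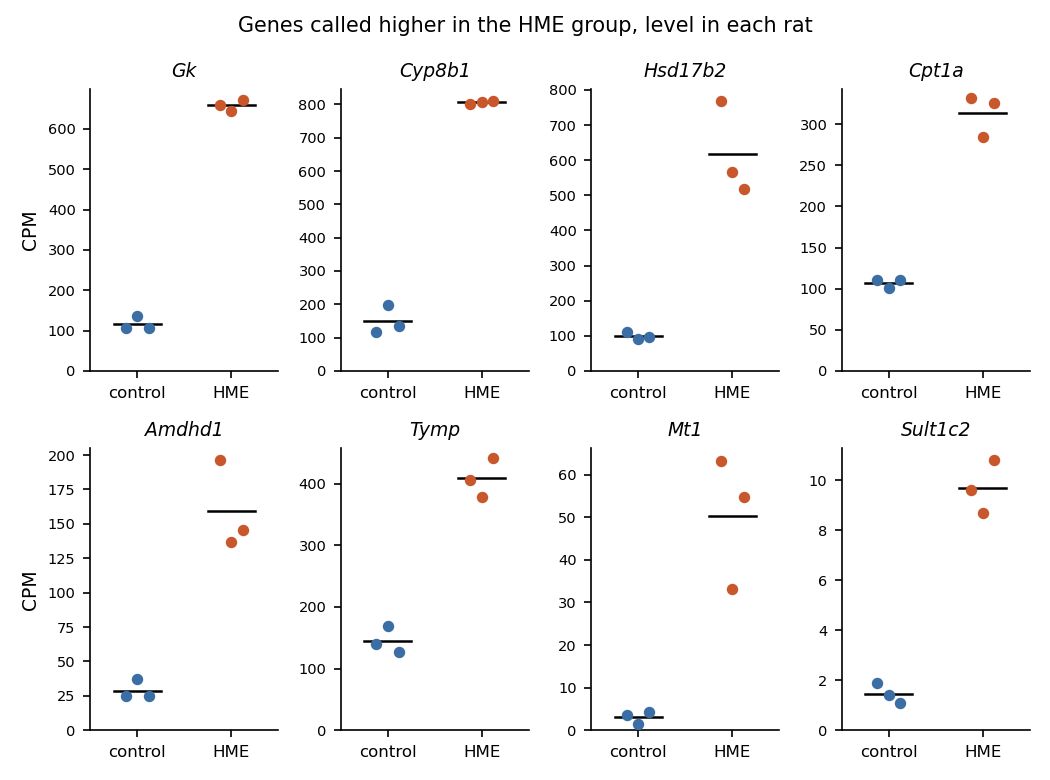
CPM of 8 genes called higher, from glycerol, bile acid, steroid, fatty acid, histidine, thymidine, metal and sulfate metabolism, in each of the 3 control and 3 HME rats, with bars at the group means and axes from 0. Every HME rat lies above every control rat in each panel, and HME rats are closest together for Gk and Cyp8b1.

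The panels of risen genes show groups that do not overlap, with HME rats more spread in Mt1 than in Gk. Of 21 tested chaperones of the heat shock response 6 fell and none rose (median -0.63, with 15 of the 21 not called by edgeR). Below all control rats were 19 (15.3% of all genes were), and DESeq2 called 13 lower. Hspa4l, a co-chaperone of HSP70, was at 9.44, 14.5 and 10.4 CPM in the control rats and 1.1, 1.75 and 1.06 CPM in the HME rats. The HME rats were far below (log2 fold change -3.13, SE 0.27, adjusted p = 0.000457). Hsp90aa1, the inducible HSP90, was at 14.4, 8.77 and 7.78 CPM in the control rats and 2.92, 3.55 and 3.01 CPM in the HME rats. Its groups were apart (log2 fold change -1.71, SE 0.25, adjusted p = 0.00626). Hsph1, another partner of HSP70, fell 2.66-fold, and the HSP90 helpers Fkbp4, Stip1 and Ahsa1 fell 2.32-fold, 2.05-fold and 1.54-fold. In the wider family of heat shock and DnaJ proteins (59 tested, median -0.27, DESeq2 11 lower and 1 higher) 3 fell and 1 rose, Dnajc12, a partner of the aromatic amino acid hydroxylases, from 21.4, 21.3 and 17.7 CPM to 43.1, 32.3 and 41 CPM (log2 fold change 0.95, SE 0.14, adjusted p = 0.00668). Hspa4l kept its call with each of the 6 rats left out. Ahsa1 lost its call whichever rat was left out, with adjusted p from 0.0175 to 0.0351. Hsp90aa1 kept its call only without control 3, with adjusted p 0.0157 to 0.0317 without each other rat. Hsph1 lost its call without control 1 or 2 or HME 3, with adjusted p 0.0117, 0.0143 and 0.0151. Fkbp4 lost its call without control 1 or 2 or HME 3, with adjusted p 0.0166, 0.0134 and 0.0112. Stip1 lost its call without control 1 or HME 3, with adjusted p 0.0114 and 0.0106. Dnajc12 kept its call only without HME 2, with adjusted p 0.0217 to 0.0262 without each other rat. Hsp90aa1 and Ahsa1 lost their calls with all 9 libraries in one fit, with adjusted p 0.0147 and 0.0267. Dnajc12 lost its call with library size alone, with adjusted p 0.0159. Hsp90aa1, Hsph1, Fkbp4, Ahsa1 and Dnajc12 lost their calls with the replicate block, with adjusted p 0.0159, 0.0196, 0.0106, 0.03 and 0.0208.

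Other branches of protein quality control gave no calls by edgeR. Genes of the unfolded protein response of the endoplasmic reticulum (24 tested, median -0.26) were not called by edgeR, with 10 at unadjusted p below 0.05 (24.2% of all genes were) and 2 lower by DESeq2. Of the 24, 8 lay below all control rats and 0 above, against 15.3% and 14.7% of all genes. Hspa5, the chaperone BiP of that response, was at 1042, 1054 and 919 CPM in the control rats and 445, 714 and 753 CPM in the HME rats. The groups did not overlap (log2 fold change -0.66, SE 0.19, adjusted p = 0.0759). Proteasome subunits (38 tested, median -0.20) had 16 below all control rats (15.3% of all genes were) and 0 above. Of the 38, 12 stood at unadjusted p below 0.05 (24.2% of all genes did), and 0 were called by edgeR or DESeq2. ATF4 targets (22 tested, median 0.44) had 0 called by edgeR, 9 at unadjusted p below 0.05 (24.2% of all genes were) and 5 higher by DESeq2. Asns, the asparagine synthetase on that list, ranged over 3.9, 2.8 and 1.5 CPM in the control rats and 4.19, 18.1 and 6.4 CPM in the HME rats. HME rats were higher and unlike each other (log2 fold change 1.77, SE 0.65, adjusted p = 0.17). Cytosolic ribosomal proteins (90 tested, median 0.04, which changed sign with library size alone) had 0 calls by edgeR, 4 at unadjusted p below 0.05 (24.2% of all genes were) and 1 lower by DESeq2. Mitochondrial ribosomal proteins (74 tested, median -0.14) had 0 calls by edgeR and 1 lower by DESeq2. Of the 74, 17 stood at unadjusted p below 0.05, close to the 24.2% of all genes, and all 17 were lower. Below all control rats lay 19 of the 74 and above them 2, against 15.3% and 14.7% of all genes.

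Mitochondrial genes were called in both directions. Among 84 genes of the respiratory chain and ATP synthase (median -0.03, 2 lower by DESeq2), 18 lay below all control rats and 2 above. Of all genes 15.3% lay below and 14.7% above. By edgeR 1 of the 84 fell, Ndufaf4, which helps assemble complex I and is not a subunit. It was at 28.5, 30.4 and 23 CPM in the control rats and 8.55, 12.2 and 9.41 CPM in the HME rats, with no overlap (log2 fold change -1.44, SE 0.17, adjusted p = 0.00223). Of 3 tested genes of the mitochondrial genome, listed only under clone-type names, AY172581.9 rose from 96.8, 85.8 and 122 CPM to 206, 225 and 184 CPM and AY172581.24 from 115, 84.9 and 124 CPM to 321, 267 and 249 CPM. Both were higher in every HME rat (log2 fold changes 1.02 and 1.37, adjusted p = 0.00613 and 0.00248). Polg, the polymerase that copies mitochondrial DNA, is on no list and was chosen after its values were seen, and it rose from 70.9, 76.6 and 70.5 CPM to 223, 173 and 179 CPM (log2 fold change 1.40, SE 0.13, adjusted p = 0.000689). Polg kept its call with each of the 6 rats left out. Ndufaf4 lost its call without control 1 or 2 or HME 3, with adjusted p 0.0132, 0.01003 and 0.013. AY172581.9 kept its call only without control 3, with adjusted p 0.0134 to 0.0283 without each other rat. AY172581.24 lost its call without control 1, with adjusted p 0.0128. AY172581.9 and AY172581.24 lost their calls with all 9 libraries in one fit, with adjusted p 0.0249 and 0.0183. AY172581.9 lost its call with library size alone, with adjusted p 0.0151. AY172581.9 lost its call with the replicate block, with adjusted p 0.0247.

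Metal, hormone and stress signals gave some of the wider rises. Mt1 (metallothionein 1, ENSRNOG00000038047), which binds zinc and copper, was at 3.5, 1.34 and 4.23 CPM in the control rats and 63.1, 33.2 and 54.7 CPM in the HME rats. HME 2 was the lowest HME rat and still far above the control rats (log2 fold change 4.05, SE 0.44, adjusted p = 0.00755). Mt2A, a near copy of Mt1 whose reads may not all be told apart from those of Mt1, was at 9.88, 4.87 and 15.3 CPM in the control rats and 210, 109 and 176 CPM in the HME rats and missed the threshold (log2 fold change 4.05, SE 0.49, adjusted p = 0.0127). The groups of Mt2A did not overlap either. Of 11 tested genes of metallothioneins and zinc (median -0.12) edgeR called Mt1 alone, while DESeq2 called 3 higher, Mt1, Mt2A and the zinc carrier Slc39a8. Klf9, a glucocorticoid-induced repressor, rose from 14.9, 13.3 and 20.8 CPM to 63, 50.3 and 44.8 CPM (log2 fold change 1.69, SE 0.19, adjusted p = 0.00241) and was the 1 call by edgeR among 18 glucocorticoid targets (median 0.47, 4 higher by DESeq2). Junb, an AP-1 factor, was at 14.5, 19.5 and 14.7 CPM in the control rats and 58.9, 40.2 and 59.2 CPM in the HME rats. It rose without overlap (log2 fold change 1.70, SE 0.18, adjusted p = 0.00184), the 1 call by edgeR among 23 immediate early genes (median 0.19, DESeq2 3 higher and 1 lower). Nim1k, a kinase related to AMPK, was at 0.325, 0.487 and 0.683 CPM in the control rats and 9.99, 4.59 and 4.39 CPM in the HME rats. Control rats were close to 0 (log2 fold change 3.70, SE 0.44, adjusted p = 0.00265), and no other of 16 kinases of that list was called by edgeR or DESeq2. Mt1 lost its call without control 1 or 3 or HME 1 or 3, with adjusted p 0.0361, 0.0167, 0.0203 and 0.0223. Klf9 lost its call without control 1, with adjusted p 0.0179. Junb lost its call without control 1, with adjusted p 0.0132. Nim1k lost its call without control 1 or 2, with adjusted p 0.0211 and 0.0217. Klf9 and Junb lost their calls with all 9 libraries in one fit, with adjusted p 0.0337 and 0.153. Mt1 lost its call with no count filter, with adjusted p 0.0239. Klf9, Junb and Nim1k lost their calls with the replicate block, with adjusted p 0.0116, 0.0163 and 0.0107. Nim1k was not tested under a filter of 10 counts in all 6 libraries.

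Insulin and growth hormone signalling had 1 call by edgeR among 27 tested (DESeq2 1 higher and 1 lower) and a median of 0.10 that changed sign with library size alone. Akt1, a kinase downstream of the insulin receptor, was at 84.1, 95.5 and 93.6 CPM in the control rats and 55.5, 53.4 and 55.6 CPM in the HME rats. HME rats were lower without overlap (log2 fold change -0.73, SE 0.10, adjusted p = 0.00377). Nrg4, a secreted growth factor of the EGF family, was at 11.4, 18.1 and 25.2 CPM in the control rats and 2.48, 1.53 and 2.01 CPM in the HME rats. It fell in every HME rat (log2 fold change -3.17, SE 0.33, adjusted p = 0.00197). Male- and female-biased liver genes, which growth hormone pulses set in the rat, had 1 rise (Hsd17b2) and 1 fall (Cyp2c22) among 15 (median -0.08, DESeq2 3 and 2). Among hepatocyte nuclear receptors and regulators (35 tested), whose median of 0.11 changed sign with library size alone, Pparg was the 1 call by edgeR (DESeq2 1 higher and 1 lower). Akt1 kept its call only without control 1, with adjusted p 0.0139 to 0.0181 without each other rat. Nrg4 lost its call without control 2 or HME 2 or 3, with adjusted p 0.0104, 0.0101 and 0.0144. Akt1 lost its call with the replicate block, with adjusted p 0.0176.

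Acute phase, complement and serpin genes, which encode plasma proteins, had medians above 0 with few calls by edgeR. The 8 hepatocyte markers had a median above 0 as well, at 0.26. Of these 8, 3 lay above all control rats and 0 below, against 14.7% and 15.3% of all genes. Acute phase proteins (31 tested, median 0.31, 6 higher by DESeq2) had 1 rise and no fall, and 11 were above all control rats (14.7% of all genes were). Serpina3n, a protease inhibitor of that response, was at 4861, 4897 and 5278 CPM in the control rats and 11220, 9036 and 10260 CPM in the HME rats. HME rats were all above the control rats (log2 fold change 1.02, SE 0.13, adjusted p = 0.00361), and the related Serpina3c (4941, 4130 and 4933 CPM in the control rats and 9713, 8512 and 9753 CPM in the HME rats) and Serpina10 (6.1, 4.81 and 3.55 CPM in the control rats and 13.8, 14.8 and 17 CPM in the HME rats) rose too (adjusted p = 0.00428 and 0.00263), 3 of 23 serpins in all (median 0.26, DESeq2 3 higher and 1 lower). None of the 3 genes overlapped between groups. Complement and coagulation genes had 22 of 36 members above all control rats (14.7% of all genes were) and 0 below (median 0.30). Of the 36, edgeR called 0 and DESeq2 8 higher, with 21 at unadjusted p below 0.05 (24.2% of all genes were). F11, coagulation factor XI, was at 123, 171 and 171 CPM in the control rats and 270, 268 and 306 CPM in the HME rats (adjusted p = 0.012). Its groups were apart. Hamp, the iron hormone hepcidin, was at 186, 118 and 155 CPM in the control rats and 540, 257 and 516 CPM in the HME rats and was not called (adjusted p = 0.0346), except without HME 2 (adjusted p = 0.00279). The groups did not overlap. Of 14 iron genes 0 were called by edgeR, with 5 at unadjusted p below 0.05 (24.2% of all genes were), and 2 higher and 1 lower by DESeq2. Serpina3n kept its call only without HME 2, with adjusted p 0.0123 to 0.0212 without each other rat. Serpina3c kept its call only without HME 2, with adjusted p 0.0105 to 0.0229 without each other rat. Serpina10 lost its call without control 2 or HME 3, with adjusted p 0.0136 and 0.0128. Serpina3c and Serpina10 lost their calls with all 9 libraries in one fit, with adjusted p 0.0204 and 0.0505. Serpina3n, Serpina3c and Serpina10 lost their calls with the replicate block, with adjusted p 0.0139, 0.0116 and 0.0118.

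Immune and repair genes gave few calls by edgeR and more by DESeq2. Interferon-stimulated genes (35 tested, median -0.23) had 0 called by edgeR, 5 at unadjusted p below 0.05 (24.2% of all genes were) and 0 by DESeq2. Matrix genes (29 tested, median -0.02) had 0 called, 3 at unadjusted p below 0.05 (24.2% of all genes were) and 0 by DESeq2. Among cytokines, chemokines and receptors (28 tested), whose median of 0.01 changed sign with library size alone, Nlrp12, a brake on inflammatory signalling, rose from 41.4, 38.6 and 47.3 CPM to 64.7, 92.8 and 78.6 CPM (log2 fold change 0.89, SE 0.14, adjusted p = 0.00946). It was the 1 call by edgeR there, with 9 genes at unadjusted p below 0.05 (24.2% of all genes were) and 1 higher and 3 lower by DESeq2. Cell cycle genes (26 tested, median -0.60) had 1 fall, 15 at unadjusted p below 0.05 (3 higher and 12 lower, against 24.2% of all genes in either direction) and 5 lower by DESeq2. Of the 26, 11 lay below all control rats and 1 above, against 15.3% and 14.7% of all genes. The gene that fell was Mcm5, part of the helicase that opens DNA for copying, with 156 counts over the control rats and 23 over the HME rats (log2 fold change -2.71, SE 0.33, adjusted p = 0.00263). Its groups did not overlap. Nlrp12 kept its call only without HME 1, with adjusted p 0.0191 to 0.041 without each other rat. Nlrp12 lost its call with all 9 libraries in one fit, with adjusted p 0.0204. Nlrp12 lost its call with library size alone, with adjusted p 0.0232. Nlrp12 lost its call with the replicate block, with adjusted p 0.0249. Mcm5 lost its call without HME 1 or 3, with adjusted p 0.015 and 0.0133, and without any 1 control rat it fell under the count filter and was not tested. Mcm5 lost its call with the replicate block, with adjusted p 0.0116. Mcm5 was not tested under a filter of 10 counts in all 6 libraries.

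Markers of other liver cells were measured as whole lists, and none was called in any list by edgeR. The sums take in every marker in the count table, also those under the count filter. Kupffer cell and macrophage markers (12 of 12 in the table tested, most abundant Clec4f) summed to 945, 485 and 653 CPM in the control rats and 607, 510 and 695 CPM in the HME rats. Sinusoidal endothelial markers (11 tested, led by Fcgr2b) summed to 458, 307 and 357 CPM against 444, 341 and 327 CPM. Stellate cell and fibroblast markers (13 tested, led by Col3a1) summed to 306, 340 and 349 CPM against 293, 400 and 358 CPM. All of these sums overlapped between groups. Red blood cell markers (9 in the table, 8 tested, led by Hba-a1) also overlapped, at 482, 458 and 1230 CPM against 746, 367 and 728 CPM, with control 3 the highest rat. Lymphocyte markers summed to 49.9, 27.3 and 39 CPM against 29, 28.5 and 30 CPM and overlapped. Neutrophil markers (7 in the table, 2 tested, led by S100a9) were low and did not overlap, at 2.16, 1.59 and 1.71 CPM against 2.37, 4.21 and 4.5 CPM. Of the 7, 4 stayed under 10 counts in all 6 rats. Bile duct markers (8 in the table, 4 tested, led by Epcam) overlapped, at 17.5, 24.6 and 24 CPM against 22.7, 22.8 and 24.8 CPM. At unadjusted p below 0.05 stood 3 hepatocyte markers, 2 stellate cell markers and 1 gene each of the red blood cell, macrophage, lymphocyte, neutrophil, endothelial and pancreas lists, where 24.2% of all genes stood, and DESeq2 called 1 hepatocyte marker higher and 1 lymphocyte marker lower. The part of these cells in the differences above was not tested.

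Transporters were called in both directions, with 3 rises and 6 falls among 239 tested solute carriers (median -0.05, DESeq2 15 and 12). Slc16a11, a carrier of pyruvate and related acids, was at 18.3, 15.4 and 19.7 CPM in the control rats and 4.25, 3.44 and 3.23 CPM in the HME rats. It fell without overlap (log2 fold change -2.29, SE 0.17, adjusted p = 0.000278). The mitochondrial carriers Slc25a25, which moves ATP-Mg and phosphate, and Slc25a44, which moves branched-chain amino acids, fell 2.1-fold and 2.06-fold, and Slc10a5 fell 2.17-fold. Slc46a3, a lysosomal carrier, and Slc8b1, the mitochondrial sodium and calcium exchanger, rose 2.88-fold and 2.45-fold. Among 41 ABC transporters, whose median was 0.00 and -0.13 with library size alone, edgeR called 0, with 16 at unadjusted p below 0.05 (24.2% of all genes were) and 5 higher and 1 lower by DESeq2. Slc16a11 kept its call with each of the 6 rats left out. Slc25a25 lost its call without control 1, 2 or 3 or HME 3, with adjusted p 0.0137, 0.0151, 0.0162 and 0.0158. Slc25a44 kept its call only without control 3, with adjusted p 0.0118 to 0.0286 without each other rat. Slc10a5 lost its call without control 1, 2 or 3 or HME 3, with adjusted p 0.0101, 0.0104, 0.0113 and 0.012. Slc46a3 kept its call only without HME 2, with adjusted p 0.0151 to 0.0377 without each other rat. Slc8b1 lost its call without control 1, 2 or 3 or HME 2, with adjusted p 0.0181, 0.0272, 0.0231 and 0.0118. Slc25a25, Slc25a44 and Slc10a5 lost their calls with all 9 libraries in one fit, with adjusted p 0.119, 0.0642 and 0.204. Slc46a3 lost its call with counts thinned to the smallest library, with adjusted p 0.0108. Slc8b1 lost its call with library size alone, with adjusted p 0.0156. Slc25a25, Slc25a44, Slc10a5 and Slc46a3 lost their calls with the replicate block, with adjusted p 0.0105, 0.0214, 0.0116 and 0.0469.

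Some of the widest changes sat in genes with few reads. AABR07004397.3, a gene with no function listed, had 4 counts over the control rats and 357 over the HME rats, a ratio of 89.6 (95% counting interval 34.7 to 331). Nat8f3, of the N-acetyltransferase 8 family, had 325 counts against 11, a ratio of 29.4 (16.2 to 59.5) with control rats higher. Lingo4, a leucine-rich repeat protein, had 307 against 18. Cntn1, a cell adhesion protein chosen after its values were seen, had 83 counts over the control rats and 0 over the HME rats, which makes it at least 27.5-fold lower against a floor of 3 counts over the group. All of these genes passed the test (adjusted p = 0.0059, 0.00828, 0.00109 and 0.00617). Hcn3, a cation channel, and Erich5, of unlisted role, fell 8.6-fold and 10.1-fold, and Rab30, a GTPase of the Golgi, rose 4.19-fold. Erich5 and Rab30 kept their calls with each of the 6 rats left out. Hcn3 lost its call without control 1 or 2 or HME 3, with adjusted p 0.0102, 0.0113 and 0.012. Hcn3 lost its call with all 9 libraries in one fit, with adjusted p 0.0127. Rab30 lost its call with the replicate block, with adjusted p 0.0159. Erich5 was not tested under a filter of 10 counts in all 6 libraries. Without any 1 HME rat AABR07004397.3 fell under the count filter, as did Nat8f3, Lingo4 and Cntn1 without any 1 control rat, and they were not tested there. Lingo4 kept its call without HME 1, 2 or 3. AABR07004397.3 lost its call without control 1, 2 or 3, with adjusted p 0.0451, 0.0452 and 0.0246. Without HME 1, 2 or 3, Nat8f3 had adjusted p 0.0426, 0.0271 and 0.0336 and Cntn1 had 0.016, 0.0117 and 0.0158, so both lost their calls. Cntn1 lost its call with all 9 libraries in one fit, with adjusted p 0.0312. Nat8f3 lost its call with no count filter, with adjusted p 0.0101. Nat8f3 and Cntn1 lost their calls with the replicate block, with adjusted p 0.0165 and 0.0214. AABR07004397.3, Nat8f3, Lingo4 and Cntn1 were not tested under a filter of 10 counts in all 6 libraries.

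The model rats, which drank fructose and received saline, place these levels beside fructose alone, as a description without a test, on a scale fitted to all 9 libraries. For Scd they held 8055, 9641 and 8193 CPM, against group means of 11340 CPM in control and 125 CPM in HME rats. Tkfc stood at 717, 620 and 772 CPM in model rats, against means of 780 CPM and 134 CPM. Cpt1a stood at 140, 137 and 98.7 CPM, against 105 CPM and 309 CPM, so these 3 genes had model levels nearer to the control rats. Per2 had 14.4, 16.9 and 12.6 CPM in model rats, against means of 81.7 CPM in control and 14.9 CPM in HME rats. Gk had 595, 510 and 642 CPM, against 114 CPM and 648 CPM, and Por had 71.7, 85.1 and 77.2 CPM, against 256 CPM and 100 CPM. For these last genes the model rats lay nearer to the HME rats. Cyp8b1 was between, at 374, 368 and 502 CPM in model rats, against 147 CPM and 794 CPM. The model genes named here were chosen after their values were seen.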

How the data were processed

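The authors aligned the reads with HISAT2 to Rnor_6.0, as the submitters' processing notes state, used HTSeq 0.6.1, unstranded, to count them on genes and deposited the raw counts. Genes with at least 10 counts in 3 or more of the 6 libraries were kept. They were fitted with edgeR 4.0.16 (R 4.3.3), with TMM scaling, the robust option of glmQLFit and glmQLFTest, a two-sided test adjusted by Benjamini-Hochberg. The thresholds of 0.5 and 0.01 follow the study's methods. CPM are edgeR's cpm values on TMM-scaled library sizes of the 6 libraries. DESeq2 1.42.0 was an alternative, as were other scalings and filters, all 9 libraries, a replicate block, thinned libraries and each rat left out. Genes named are the 12 called genes with the largest rise and the 12 with the largest fall at a mean of at least 50 counts, up to 6 called members of each list or family, and a set of key genes. The members and lists were chosen with earlier results of these data known. The code was checked on simulated data. A table of assembled transcripts, whose unit is not stated, and a rat genome were not used here. Symbols given to 2 genes carry the gene identifier. Some of the genes taken by the naming rule are not reported here.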

Additional observations from a re-analysis of the deposited data

How the results depend on the processing

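The 84 higher and 103 lower calls stayed within 1.5 times with DESeq2 size factors, both other count filters, thinned libraries and no minimum fold change, and no called gene changed sign under any alternative. Scaling by library size alone gave 179 lower genes, no count filter gave 237 higher and 252 lower, DESeq2 gave 388 and 379, an FDR of 0.05 gave 386 and 409, and fitting all 9 libraries gave 44 higher. With the replicate number as a block (replicate block) 39 genes were higher and 64 lower, and residuals of rats with the same number correlated at -0.015, -0.023 and -0.094, so the rats were treated as unpaired. With 1 rat left out the counts ranged from 18 to 70 higher and from 49 to 63 lower, with fewer samples in each fit. Of the named genes under all alternatives, 1158 values kept their side of the threshold, 317 fell short of it, 21 passed it and 1 reversed, that of Cps1, uncalled at -0.08, at 0.04 without HME replicate 2 and -0.19 without HME replicate 1. A stricter or looser threshold and fewer samples change these counts by construction. The replicate block fits more terms to the same 6 libraries, which leaves less information on the spread between rats. How far this lowered its counts was not tested, nor was the cause for the other settings. Genes with few counts, such as Cntn1 and AABR07004397.3, have changes limited by depth.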

Other observations

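Of the 187 called genes, 106 belong to none of the lists or families, and the genes given here were chosen from them after their values were seen. Both enzymes that add and remove the phosphate of vitamin B6 fell. Pdxk, which phosphorylates the vitamin, was at 25.3, 25.9 and 23.6 CPM in the control rats and 11.8, 11.7 and 10.5 CPM in the HME rats. Pdxp, which removes the phosphate, was at 5.49, 5.67 and 8.12 CPM in the control rats and 1.21, 1.26 and 0.793 CPM in the HME rats. Neither gene overlapped between groups (log2 fold changes -1.14 and -2.55, adjusted p = 0.00123 and 0.00153). Xpo1, the main nuclear export receptor, fell from 64.5, 61.5 and 68.3 CPM to 32.8, 34.5 and 32.9 CPM, and Rangap1, which drives the RAN cycle, fell from 97.3, 94 and 74.7 CPM to 29.5, 37.6 and 37.1 CPM (adjusted p = 0.00106 and 0.00119). Galt, of galactose use, rose from 12.6, 15.7 and 12.3 CPM to 39.6, 33.7 and 38.5 CPM (log2 fold change 1.46, SE 0.14, adjusted p = 0.00071), with no overlap. Pdxk, Pdxp, Xpo1, Rangap1 and Galt kept their calls with each of the 6 rats left out.

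Gjb1 and Gjb2 encode gap junction proteins, and Gjb1 rose from 465, 469 and 480 CPM to 789, 713 and 885 CPM and Gjb2 from 22.6, 32.4 and 28.3 CPM to 87.6, 57.2 and 83.1 CPM (adjusted p = 0.00957 and 0.00506). Flcn, a regulator of nutrient sensing, rose from 20.2, 18.2 and 19.1 CPM to 49.1, 42.4 and 43 CPM and Gabarapl1, which coats autophagosomes, from 122, 130 and 159 CPM to 380, 285 and 308 CPM (adjusted p = 0.000689 and 0.00263). Dio1, the deiodinase that activates thyroid hormone in liver, rose from 94.8, 114 and 97.3 CPM to 220, 171 and 170 CPM (log2 fold change 0.87, SE 0.14, adjusted p = 0.00861). Gpx1, the glutathione peroxidase that removes hydrogen peroxide, fell from 746, 879 and 751 CPM to 461, 368 and 370 CPM (log2 fold change -0.99, SE 0.14, adjusted p = 0.00513). In each of these genes all HME rats lay on one side of all control rats. Flcn kept its call with each of the 6 rats left out. Gjb1 and Dio1 lost their calls whichever rat was left out, with adjusted p from 0.0117 to 0.0404. Gjb2 kept its call only without HME 2, with adjusted p 0.0115 to 0.0226 without each other rat. Gabarapl1 lost its call without control 1 or 2, with adjusted p 0.015 and 0.0159. Gpx1 kept its call only without HME 1, with adjusted p 0.0154 to 0.0229 without each other rat. Gjb1, Dio1 and Gpx1 lost their calls with all 9 libraries in one fit, with adjusted p 0.0112, 0.0212 and 0.0336. Dio1 lost its call with library size alone, with adjusted p 0.0159. Gjb1, Gjb2, Gabarapl1, Dio1 and Gpx1 lost their calls with the replicate block, with adjusted p 0.0308, 0.0341, 0.0105, 0.0275 and 0.0191.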
